A study of Homo sapiens with 6 samples.

Results

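Kinesins are motor proteins that bind microtubules and use ATP to walk along them or to take apart their ends. One group of them works almost only while a cell divides, where it builds the spindle, moves chromosomes and cuts the daughter cells apart. Others carry vesicles, organelles and RNA through the cytoplasm or into cilia, whatever the phase of the cell cycle. The genes of many mitotic kinesins are transcribed mainly in G2 and M, and their promoters are known for CCAAT boxes and for the cell cycle genes homology region (CHR), a short element bound by the MuvB complexes.

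The genes described here are those whose symbol in the deposited table is KIF followed by a number and at most 1 letter from A to C, or KIFC1 to KIFC3. This rule took 37 of the 16834 genes, all of which were tested, and it used no measured value. Of these, 12 were set apart as mitotic kinesins (KIF2C, KIF4A, KIF11, KIF14, KIF15, KIF18A, KIF18B, KIF20A, KIF20B, KIF22, KIF23 and KIFC1) and the remaining 25 are called other kinesins. The split is by textbook role and is not clean, since KIF2A, KIF24 and KIFC3 among the others also have roles at spindle poles or centrioles. The annotation holds 5 further coding kinesin genes that the table does not list (KIF12, KIF19, KIF25, KIF2B and KIF4B, a retrocopy that could share reads with KIF4A). CENPE, a kinesin-7 at the kinetochore, has a symbol outside the rule and is described among the partners.

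RNA was sequenced from 3 Flag-IPs and 3 HA-IPs of asynchronously cycling HEK293-T Flp-In cells, a human embryonic kidney line that carries ccTaggedRP inserted at a single site. In this construct the CAG promoter drives 1 bicistronic transcript for both tagged forms of the large-subunit ribosomal protein RPL10a, and both groups came from cells with this construct. Flag-RPL10a-hCdt carries a degron of human Cdt1 and was designed to be present in G1 and S, while HA-RPL10a-hGem carries a degron of human Geminin and was designed to be present in S, G2 and M. A Flag-IP is thus the RNA recovered with an antibody against Flag and an HA-IP the RNA recovered with an antibody against HA, and untagged RPL10a remained in the cells. Each value below is a normalized count, the number of reads of a gene divided by a size factor of its library. A fold change compares the HA-IPs with the Flag-IPs, and a positive one means more in the HA-IPs. No library of input RNA was analysed here. In such precipitates, fewer cells in a phase and less RNA per cell cannot be told apart. The labels do not say that the replicates came from separate cultures, so p-values measure the spread between these libraries, which may be technical.

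The libraries held 23174532 to 44134833 reads. All 5 epithelial markers were present in every library, led by KRT8 at 10165 normalized counts in the Flag-IPs. Their summed level was 20555 to 21420.4 in the Flag-IPs, compared with 23579.9 to 23969.5 in the HA-IPs. All 5 had every HA-IP above the Flag-IPs, 2 of them (EPCAM and CDH1) were called for the HA-IPs, and their median log2 fold change was 0.18. Over all genes 16.1% had every HA-IP above the Flag-IPs, 5.79% were called for the HA-IPs and 7.1% for the Flag-IPs. Among genes averaging 1000 normalized counts or more these shares were 31.8%, 14.4% and 7.42%. Of 10 kidney markers 7 were listed, most of them at low counts, with 1 called for the HA-IPs (LRP2) and 3 for the Flag-IPs (PAX2, PAX8 and SLC12A1). PAX8 and SLC12A1 were at no more than 4.95 normalized counts in any HA-IP. They could thus pass a filter on reads only through the Flag-IPs, and their direction is no independent result. The median log2 fold change of the 7 kidney markers was -0.79, with 3 higher and 4 lower in the HA-IPs. Their summed level was 3759 to 4631 in the Flag-IPs, compared with 4525 to 4877 in the HA-IPs. Most of this sum was LRP2, with 3391 to 4305 in the Flag-IPs and 4298 to 4663 in the HA-IPs. The marker genes named here were chosen after their values had been seen. Heart muscle markers, which the label of an embryonic kidney line does not foresee, were listed for 14 of 18 genes, and all 14 were higher in the Flag-IPs. Their summed level was 96117 to 202047 normalized counts in the Flag-IPs and 1817 to 18802 in the HA-IPs, highest among the HA-IPs in replicate 3. Of these 14 only CSRP3 was at 0 in HA-IP replicates 1 and 2, where MYH7 was still at 1031 and 478. Of 8 listed neuron markers 0 were called in limma, with 0 at an unadjusted p under 0.05. What part these transcripts have in the differences of the kinesins was not tested.

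The promoters are shown first, as a feature of these genes that neither the rule nor the counts used. RefSeq (GRCh38.p14) gave a promoter of 300 bases, 250 before and 50 after the start, for 30 of the 37 genes, that is all 12 mitotic and 18 other kinesins. Entries were missing for KIF13B, KIF21B, KIF26B, KIF27, KIF5A, KIFC2 and KIFC3. They were searched on both strands for the CHR letters TTTGAA or TTTAAA and for CCAAT. A hexamer and a CCAAT can share at most 1 letter.

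Of the 12 mitotic kinesins, 11 (91.7%) held at least one of the hexamers, and KIF22 was the exception. Of the 18 other kinesins, 2 (11.1%) did, KIF5B and KIF16B. The share was 24% over all 35116 RefSeq promoters and 15.8% over the 11687 promoters of genes in the table. CCAAT was found in 10 mitotic kinesins (83.3%), all but KIF15 and KIF2C, and in 5 other kinesins (27.8%), against 36.5% of the promoters of genes in the table. Both kinds of motif stood in 9 mitotic kinesins (75%), in 1 other kinesin (5.56%) and in 6.43% of the promoters of genes in the table. Within the last 100 bases before the start, 6 of 12 mitotic kinesins and 0 of 18 other kinesins held a hexamer, against 4.51%. In the mitotic kinesins KIF18B, KIF20B and KIFC1 the hexamers lay after the start and in KIF2C across it. A match is a description of letters and not a shown binding site.

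In the last 100 bases before the RefSeq start, 5 mitotic kinesins held a CCAAT followed by a hexamer. These bases are printed for 4 of them, all but KIF23. They are also printed for KIF5B, the most abundant other kinesin per length, and for KIF1C, the called other kinesin with the smaller adjusted p. Capitals mark the hexamer (either TTTGAA or its variant, printed as its reverse complement where it is on the opposite strand). They also mark each CCAAT, printed as ATTGG where it is on the opposite strand. The sequences are in the direction of transcription on GRCh38.p14.
KIF4A chrX:70290004-70290103 (plus strand): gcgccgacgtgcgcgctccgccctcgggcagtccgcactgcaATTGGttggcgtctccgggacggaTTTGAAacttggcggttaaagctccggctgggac
KIF20A chr5:138179012-138179111 (plus strand): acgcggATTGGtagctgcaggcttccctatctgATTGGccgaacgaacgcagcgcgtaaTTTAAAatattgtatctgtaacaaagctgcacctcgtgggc
KIF11 chr10:92593030-92593129 (plus strand): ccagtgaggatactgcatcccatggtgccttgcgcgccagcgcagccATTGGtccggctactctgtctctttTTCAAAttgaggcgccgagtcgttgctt
KIF18A chr11:28108157-28108256 (minus strand): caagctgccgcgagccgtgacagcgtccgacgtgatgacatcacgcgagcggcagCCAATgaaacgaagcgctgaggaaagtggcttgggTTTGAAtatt
KIF5B chr10:32056426-32056525 (minus strand): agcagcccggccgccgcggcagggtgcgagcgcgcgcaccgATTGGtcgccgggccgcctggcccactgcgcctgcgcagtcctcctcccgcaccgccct
KIF1C chr17:4997850-4997949 (plus strand): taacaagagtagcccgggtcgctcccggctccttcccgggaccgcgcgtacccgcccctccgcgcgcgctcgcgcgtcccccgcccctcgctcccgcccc
In KIF4A the hexamer began 34 bases and the CCAAT 58 bases before the start. In KIF20A the hexamer began 41 bases before the start, after CCAAT boxes at 94 and 67 bases, and in KIF11 the positions were 28 and 53 bases. KIF18A had its hexamer 10 bases and its CCAAT 45 bases before the start. KIF5B held only a CCAAT in this stretch, with its hexamer farther away at 140 bases, and KIF1C held neither motif.

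For comparison, the same letters were looked up in genes other than kinesins. Of 741 such genes with a hexamer and a CCAAT in the 300 bases, the calls for the HA-IPs made up 8.23%, compared with 6.8% of the 10916 genes without both. Their median log2 fold changes were 0.02 and 0.0048.

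The first question was whether the kinesins of cell division were more abundant in the RNA recovered with the Geminin degron form. Of the 12 mitotic kinesins, 7 had a limma adjusted p of at most 0.05 and all 7 were higher in the HA-IPs, whereas 5.79% of all 16834 genes were called in this direction. They were KIFC1, KIF20A, KIF4A, KIF2C, KIF14, KIF11 and KIF23. In the other direction limma called 0 of them, with 0 at an unadjusted p under 0.05, where the share over all genes was 7.1%. The fold changes of all 12 were positive and small, from 0.09 to 0.26 on the log2 scale, that is 6.51% to 19.9% more in the HA-IPs, with a median of 0.18. The median of all genes was -0.0049. In 10 of the 12, all HA-IPs exceeded all Flag-IPs, which held for 16.1% of all genes. The 5 epithelial markers had the same median of 0.18, and what part the cells or RNA they mark have in this result was not tested.

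The mitotic kinesins are well expressed, and highly expressed genes leaned toward the HA-IPs in general. Among 5959 genes whose mean was 1000 normalized counts or more, the calls were 14.4% for the HA-IPs and 7.42% for the Flag-IPs, their median log2 fold change was 0.05, and in 31.8% all HA-IPs exceeded all Flag-IPs. Against this background 11 of the 12 mitotic kinesins had such a mean, all but KIF18A. Of the 25 other kinesins 13 reached this level.

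Of the 25 other kinesins 0 were called for the HA-IPs in limma (6 had an unadjusted p under 0.05), and 2, KIF1C and KIF9, were called higher in the Flag-IPs, that is 8%, close to the 7.1% of all genes. Their fold changes ran from -0.58 to 0.24, 16 positive and 9 negative, with a median of 0.05. All HA-IPs exceeded all Flag-IPs in 6 of them (16.1% of all genes), and all were below them in 4, which held for 16.1% of all genes. The 15 other kinesins with a mean at least that of the lowest mitotic kinesin had 0 calls in the HA-IPs, 1 in the Flag-IPs (6.67%) and a median of 0.07, where genes averaging 1000 or more had 14.4% and 7.42%. DESeq2 on the recovered reads called 7 mitotic and 1 other kinesin, and edgeR 6 and 2, with the mitotic calls all in the HA-IPs and the others all in the Flag-IPs. Over all genes DESeq2 called 6.2% for the HA-IPs and 7.31% for the Flag-IPs, and edgeR 5.35% and 7.31%.

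**Figure D1:**
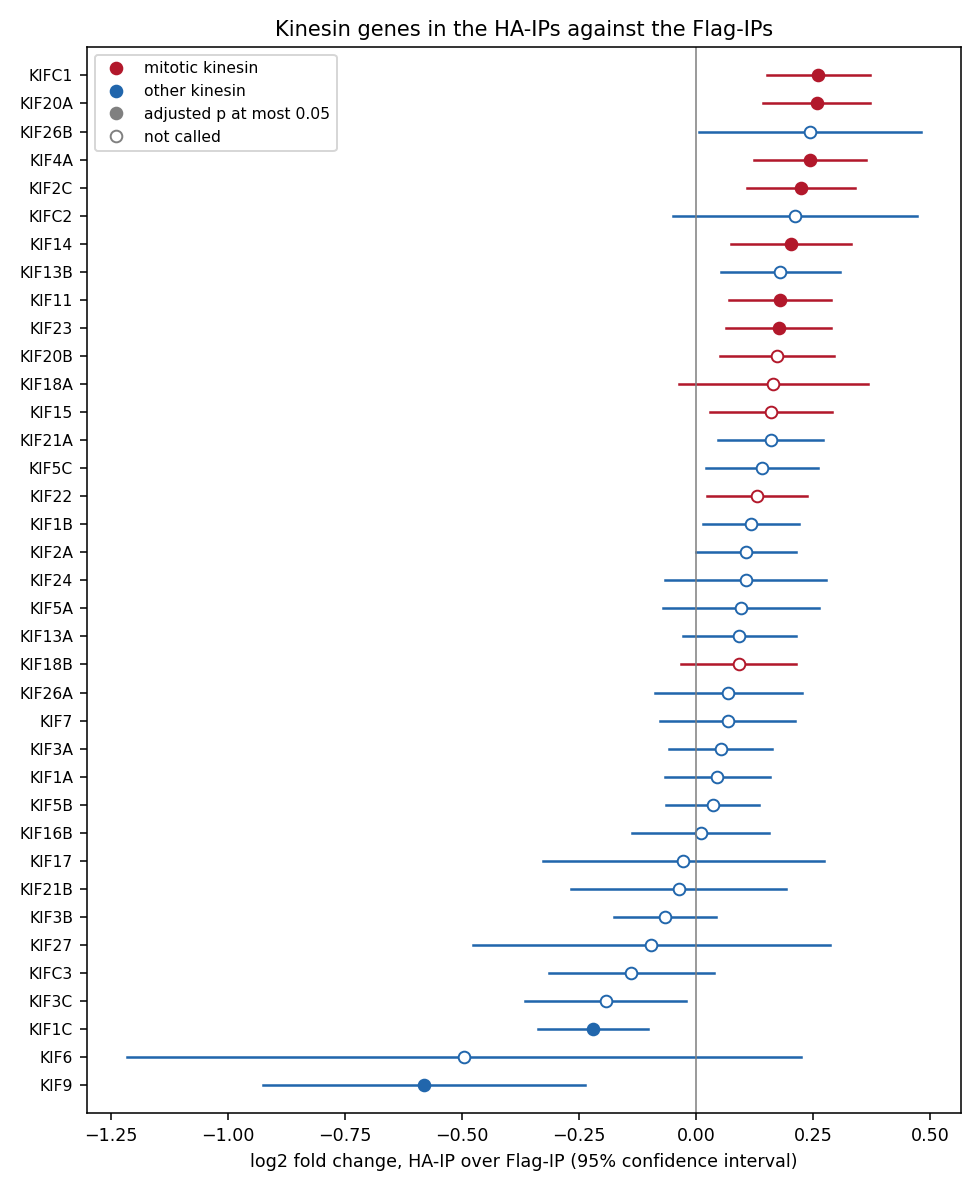
Log2 fold change of each of the 37 kinesin genes, HA-IPs over Flag-IPs (x axis), with its 95% confidence interval from limma, ordered by fold change. The 12 mitotic kinesins (red) lie between 0.09 and 0.26 on the positive side, filled where the adjusted p was at most 0.05, while the 25 other kinesins (blue) span -0.58 to 0.24.

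The count of mitotic calls changed when a library was left out. It fell to 1 without Flag-IP replicate 2, to 3 without HA-IP replicate 1 or 2 and to 2 without HA-IP replicate 3, while calls over all genes fell from 2171 to between 620 and 1216 in the same fits. The median of the 12 stayed between 0.16 and 0.21 in all 6 fits that left out a library. Limma without the trend of the variance on the mean called 0 of the 12 and 188 genes in all. With the libraries scaled to the same total, 4 of the 12 were called, the median of the mitotic kinesins was 0.13 and that of the other kinesins 0.0002. The median of all genes moved down as well with this scaling, from -0.0049 to -0.0573. Over all genes the calls were then split into 471 for the HA-IPs and 1576 for the Flag-IPs, instead of 975 and 1196.

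A difference between the sets within a library hardly depends on how the libraries were scaled. The log2 values of each gene were centred on its mean over the 6 libraries and averaged over each set. The mitotic kinesins averaged -0.13, -0.11 and -0.05 in Flag-IP replicates 1, 2 and 3 and 0.09, 0.06 and 0.14 in the HA-IPs. The other kinesins averaged -0.05, 0.01 and 0.04 in the Flag-IPs, compared with 0.02, 0.02 and -0.06 in the HA-IPs. The mitotic mean minus the other mean was -0.08, -0.12 and -0.09 in the Flag-IPs, compared with 0.06, 0.04 and 0.19 in the HA-IPs, so the groups did not overlap in the mitotic mean or in the difference, whereas they overlapped in the other mean. This difference between the sets was not tested, since genes are not replicates. It was largest in HA-IP replicate 3, the HA-IP with the most heart muscle transcripts, and what part that has was not tested.

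**Figure D2:**
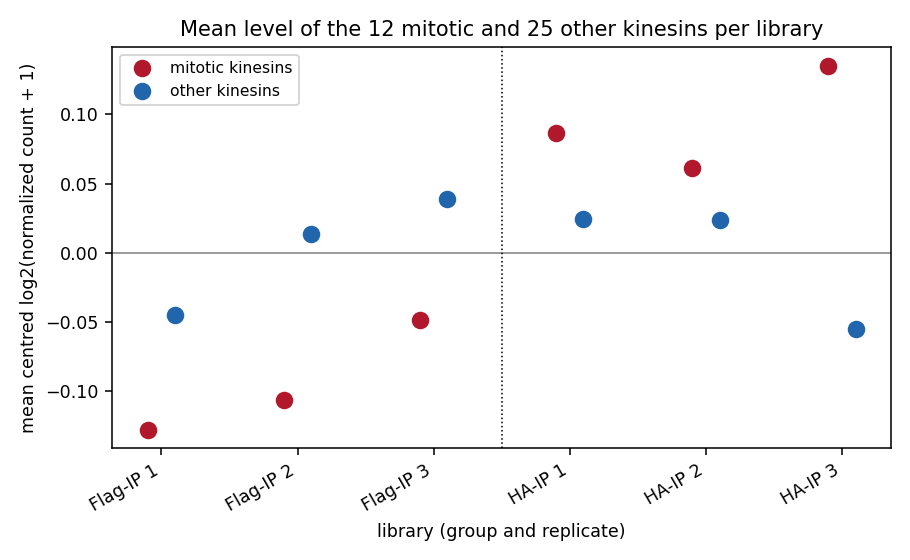
Mean centred log2(normalized count + 1) of the 12 mitotic (red) and 25 other kinesins (blue) in each of the 6 libraries, without error bars since genes are not replicates. The mitotic means are below -0.04 in all 3 Flag-IPs and above 0.06 in all 3 HA-IPs, while the other means lie between -0.06 and 0.04 in both groups.

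KIF11, KIF15 and KIFC1 set the spacing of the spindle poles. KIF11 (chr10:92574105-92655395 on GRCh38), the kinesin-5 that pushes the poles apart and the target of many antimitotic drugs, was at 8544, 8735 and 9262 normalized counts in Flag-IP replicates 1 to 3 and at 10135, 9642 and 10286 in the HA-IPs. The groups did not overlap, and the means of 10021 ± 336 (SD, n = 3) against 8847 ± 372 (SD, n = 3) differed by 13.3% (log2 fold change 0.18, SE 0.0496, limma adjusted p = 0.0358). KIF15, a kinesin-12 that can hold a bipolar spindle when KIF11 is inhibited, had 1442, 1533 and 1473 in the Flag-IPs, set against 1742, 1567 and 1666 in the HA-IPs. It did not overlap either but missed the threshold (log2 fold change 0.16, SE 0.0597, limma adjusted p = 0.104).

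KIFC1 (chr6:33391823-33409896), the kinesin-14 that walks to the minus end, pulls the poles inward and clusters extra centrosomes, had the largest positive fold change of all 37 kinesins. Its values were 4579, 4792 and 5009 in the Flag-IPs, set against 5729, 5894 and 5612 in the HA-IPs. Every HA-IP exceeded the highest Flag-IP, by 19.9% in the mean (log2 fold change 0.26, SE 0.0499, limma adjusted p = 0.00734). It was the only mitotic kinesin called in all 6 fits that left out a library, with adjusted p from 0.00189 to 0.0488. The processed pseudogene RPL12P1 overlaps 14% of its exon bases on the opposite strand and is not listed in the table.

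The chromosome arms and kinetochores are served by KIF4A, KIF22, KIF2C, KIF18A and KIF18B. KIF4A (chrX:70290104-70420886), a chromokinesin that later limits the length of midzone microtubules together with PRC1, was the most abundant of the 12 by counts. It measured 8902, 8615 and 9670.2 in the Flag-IPs, set against 10270.0, 10876 and 11030.0 in the HA-IPs. The lowest HA-IP stood above the highest Flag-IP (log2 fold change 0.24, SE 0.0544, limma adjusted p = 0.0146). PDZD11, which shares 1.68% of the KIF4A exon bases on the opposite strand, went the other way (log2 fold change -0.65, limma adjusted p = 0.0196). KIF22, the chromokinesin that pushes chromosome arms toward the equator, read 5939, 6258 and 6384 in the Flag-IPs, set against 6999.9, 6774 and 6573 in the HA-IPs. Its groups were apart, yet the test was missed (log2 fold change 0.13, SE 0.0488, limma adjusted p = 0.104).

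KIF2C (chr1:44739818-44767767), a kinesin-13 that takes microtubule ends apart and corrects faulty kinetochore attachments, stood at 5065, 5388 and 5586 in the Flag-IPs against 6278, 5984 and 6463 in the HA-IPs. This was a rise of 16.8% without overlap (log2 fold change 0.22, SE 0.0528, limma adjusted p = 0.0189). Its relative KIF2A, which acts at spindle poles and in neurons and is counted among the other kinesins, had a log2 fold change of 0.11 (limma adjusted p = 0.18). The ratio of KIF2C to KIF2A was 1.47, 1.68 and 1.69 in the Flag-IPs, compared with 1.74, 1.7 and 1.8 in the HA-IPs, apart by a narrow margin. This pair was chosen after earlier values had been seen. DIMT1 shares 18.7% of the KIF2A exon bases on the opposite strand and was not called (log2 fold change 0.02).

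The kinesin-8 motors, which dampen chromosome movements and trim microtubule plus ends, were the mitotic kinesins whose groups overlapped. KIF18A gave 865, 710.3 and 719 in the Flag-IPs, set against 833, 797 and 937 in the HA-IPs, with Flag-IP replicate 1 above HA-IP replicates 1 and 2. Its counts were the lowest of the 12 and its interval was wide (log2 fold change 0.17, 95% confidence interval -0.04 to 0.37, limma adjusted p = 0.279). KIF18B, which regulates astral microtubules, gave 4399.9, 4883 and 4982 in the Flag-IPs, set against 4882, 5159 and 5135 in the HA-IPs. It had the smallest change of the 12, and its interval reached from below 0 to 0.21 (log2 fold change 0.09, SE 0.0563, limma adjusted p = 0.335).

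Cytokinesis depends on KIF14, KIF20A, KIF20B and KIF23. KIF20A (chr5:138178719-138187723), which brings the chromosomal passenger complex to the midzone, was at 4780.4, 4989 and 5165 in the Flag-IPs, set against 5716, 5905 and 6238 in the HA-IPs. The gap between the groups was wide and the rise of 19.6% close to that of KIFC1 (log2 fold change 0.26, SE 0.0517, limma adjusted p = 0.00938). Without Flag-IP replicate 2 it missed the threshold narrowly, at an adjusted p of 0.0547. Its exons share 3.43% and 1.92% of their bases with BRD8 and CDC23 on the opposite strand, genes with log2 fold changes of 0.13 and 0.14 that were not called.

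KIF23 (chr15:69414246-69448427), the motor subunit of centralspindlin, had 6746, 6538 and 7067 in the Flag-IPs, set against 7642, 7349 and 8016 in the HA-IPs. The groups were apart and the change passed the threshold (log2 fold change 0.18, SE 0.0511, limma adjusted p = 0.0432). KIF14, which recruits citron kinase to the midbody, moved from 3699.9, 3986 and 4256 to 4459, 4520.2 and 4752, again with no overlap (log2 fold change 0.20, SE 0.0581, limma adjusted p = 0.0415). KIF20B, needed for late cytokinesis, read 3428, 3342 and 3476 in the Flag-IPs, set against 3882, 3599 and 4088 in the HA-IPs. Its Flag-IPs were close together, and the difference of 12.8% missed the threshold by little (log2 fold change 0.17, SE 0.0554, limma adjusted p = 0.0635). KIF11, KIF14 and KIF23 each passed in 1 of the 6 fits without a library, that without Flag-IP replicate 3, and KIF4A and KIF2C in 3 of 6. Their adjusted p reached 0.149, 0.146 and 0.192, and 0.0934 and 0.0814.

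**Figure D3:**
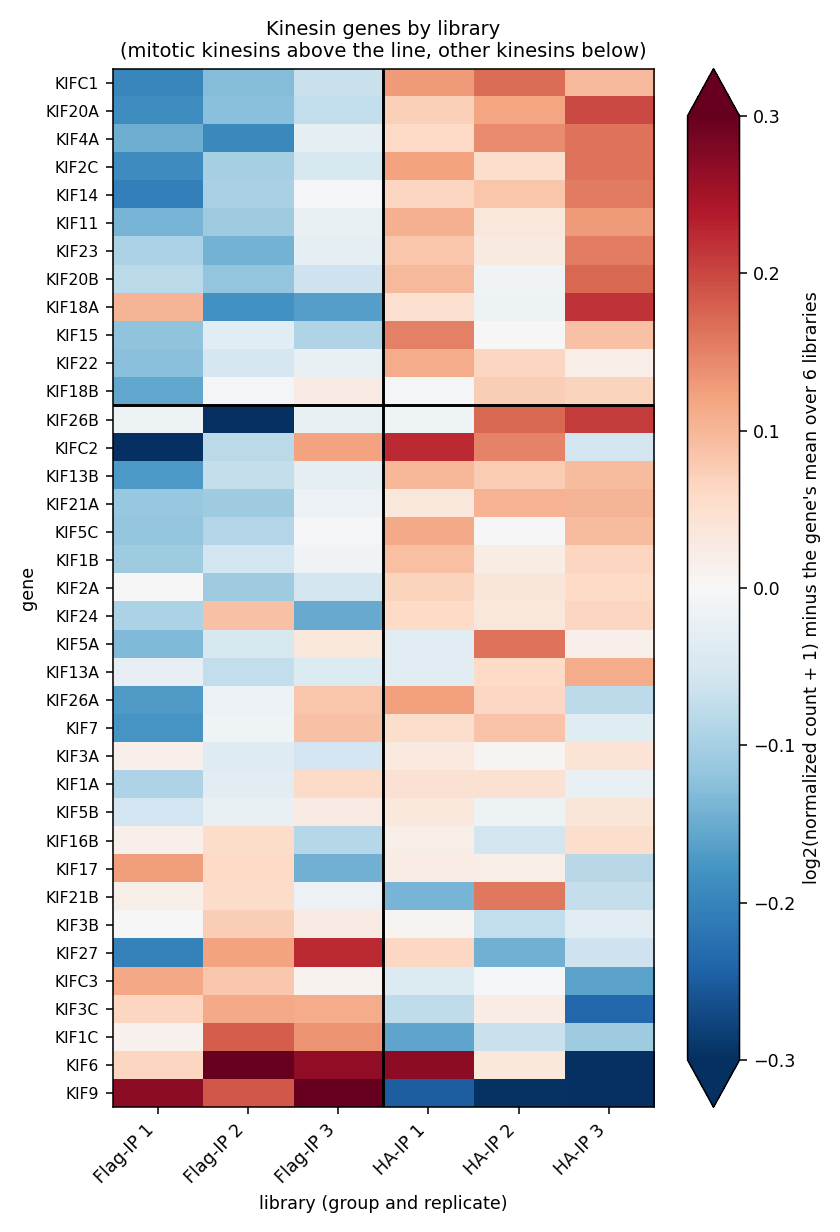
Log2(normalized count + 1) of each kinesin gene (rows) in each library (columns) minus the mean of that gene over the 6 libraries, with red above and blue below the mean and colours ending at 0.3 and -0.3. The 12 mitotic kinesins above the line are mostly blue in the Flag-IPs and mostly red in the HA-IPs, with KIF18A in Flag-IP replicate 1 as an exception, and KIF1C, KIF6 and KIF9 at the bottom are mostly red in the Flag-IPs.

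Among the other kinesins, KIF1C (chr17:4997950-5028401), a fast kinesin-3 that carries dense-core vesicles and integrins, was 1 of the 2 that were called. It was at 9017, 10126 and 9810.4 normalized counts in the Flag-IPs, set against 8005, 8523 and 8299.9 in the HA-IPs. All HA-IPs were below all Flag-IPs, and the mean was 14.2% lower (log2 fold change -0.22, SE 0.0536, limma adjusted p = 0.0215). Its relatives KIF1A and KIF1B were not called. KIF1A, the neuronal carrier of synaptic vesicle precursors, had 12814, 13341 and 14205 in the Flag-IPs, compared with 14104, 14093 and 13441 in the HA-IPs, and its groups overlapped (log2 fold change 0.05, 95% confidence interval -0.07 to 0.16). KIF1B, which carries mitochondria and vesicles, had 7148, 7394 and 7646 in the Flag-IPs, compared with 8191, 7816 and 8049.6 in the HA-IPs, and lay higher in every HA-IP without passing the test (log2 fold change 0.12, SE 0.0467, limma adjusted p = 0.129).

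The ratio of KIF1C to KIF1B was 1.26, 1.37 and 1.28 in the Flag-IPs, compared with 0.977, 1.09 and 1.03 in the HA-IPs, and that of KIF1C to KIF1A was 0.704, 0.759 and 0.691 against 0.568, 0.605 and 0.618. Neither ratio overlapped between the groups, and a ratio within a library does not change with its scaling. These pairs were chosen after their values had been seen. The call of KIF1C held in 2 of the 6 fits without a library, and its adjusted p rose to 0.123 at most, with the fold change between -0.27 and -0.18.

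KIF9 (chr3:47227998-47283451), a kinesin linked to the beating of cilia and flagella, was a gene of low counts with 110.4, 104 and 123 in the Flag-IPs, set against 76.9, 74.3 and 72.8 in the HA-IPs. The HA-IPs were all lower (log2 fold change -0.58, SE 0.157, limma adjusted p = 0.0331). The call held in 0 of the 6 fits without a library, where adjusted p ran from 0.0515 to 0.101. The antisense gene KIF9-AS1 overlaps 14.8% of its exon bases, and without a stated strand of counting the reads of both cannot be told apart. KIF9-AS1 itself was listed at 50.6, 56.4 and 29.5 in the Flag-IPs, set against 51.5, 54.5 and 23.2 in the HA-IPs. Of 7 markers of motile cilia 1, DNAH5, was listed, at a mean of 21.6 normalized counts. KIF6, the other kinesin-9, was lower still at 41.6, 53.2 and 48 in the Flag-IPs, compared with 48, 40.6 and 18.7 in the HA-IPs, with overlapping groups.

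Other large changes were not called. KIF26B, an atypical kinesin of cell adhesion and polarity, had 401, 322 and 399 in the Flag-IPs, set against 402, 457 and 469 in the HA-IPs. Its lowest HA-IP and highest Flag-IP nearly touched (log2 fold change 0.24, SE 0.108, limma adjusted p = 0.171). KIFC2, a neuronal kinesin-14, ranged from 427 to 640.0 with overlapping groups (log2 fold change 0.21, SE 0.119, limma adjusted p = 0.285). KIF13B, a kinesin-3 that carries growth factor receptors, read 1354, 1452 and 1496 in the Flag-IPs, compared with 1634, 1609 and 1629 in the HA-IPs, and was the other kinesin nearest to a call in the HA-IPs (log2 fold change 0.18, SE 0.0576, limma adjusted p = 0.0626). KIF3C, a kinesin-2 of neurons, went the other way with 758, 785 and 783 in the Flag-IPs, set against 688, 737 and 615 in the HA-IPs, all lower (log2 fold change -0.19, SE 0.0787, limma adjusted p = 0.137).

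The remaining 14 other kinesins had log2 fold changes between -0.14 and 0.16 and none was called by limma, edgeR or DESeq2. Highest among them were KIF21A, a kinesin-4 that restrains microtubule growth at the cell cortex, at 0.16, the neuronal kinesin-1 heavy chain KIF5C at 0.14 and the depolymerase KIF2A at 0.11. These had an unadjusted p under 0.05 and groups that were apart (limma adjusted p = 0.0629, 0.119 and 0.18). The kinesin-2 subunits that build cilia, KIF3A and KIF3B, were at 0.05 and -0.07, with 95% confidence intervals of -0.06 to 0.16 and -0.18 to 0.04. KIF5A, KIF13A, KIF16B, KIF17, KIF21B, KIF24, KIF26A and KIF27 all had intervals that included 0, as did KIFC3.

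Levels between genes were compared per kilobase of the canonical transcript. KIF22 was highest with a mean of 3118 normalized counts per kilobase, followed by KIF4A with 2255, KIFC1 with 2204, KIF5B with 2056 and KIF2C with 2024. The ranges over the libraries of KIF4A, KIFC1, KIF5B and KIF2C overlapped, while KIF22 lay above them in every library. KIF5B, the kinesin-1 heavy chain used by nearly all cells, was the most abundant other kinesin. Its counts of 11591, 11870.0 and 12270.0 in the Flag-IPs, set against 12323, 11932 and 12359 in the HA-IPs overlapped (log2 fold change 0.04, 95% confidence interval -0.06 to 0.13), and its sign turned negative with the libraries at the same total, with quantile normalization and after GC and length trends were removed. KIF11, at a similar count, was 0.737, 0.736 and 0.755 times KIF5B in the Flag-IPs, compared with 0.822, 0.808 and 0.832 times in the HA-IPs. This pair was chosen after earlier values had been seen, and its ratio is no result apart from the call of KIF11.

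KIF7, which regulates Hedgehog signalling at the tip of the primary cilium, reached 1189.8 per kilobase and overlapped between groups (log2 fold change 0.07, 95% confidence interval -0.08 to 0.21). TICRR shares 10.8% of the KIF7 exon bases on the opposite strand. At the low end stood KIF6 with 4.59, KIF27 with 12.4 and KIF9 with 28 per kilobase. The lowest mitotic kinesin, KIF18A, had 237. All 37 kinesins together took 0.429% to 0.463% of the normalized counts of a library, and the mitotic kinesins took 0.194% to 0.204% of a Flag-IP and 0.216% to 0.223% of an HA-IP.

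**Figure D4:**
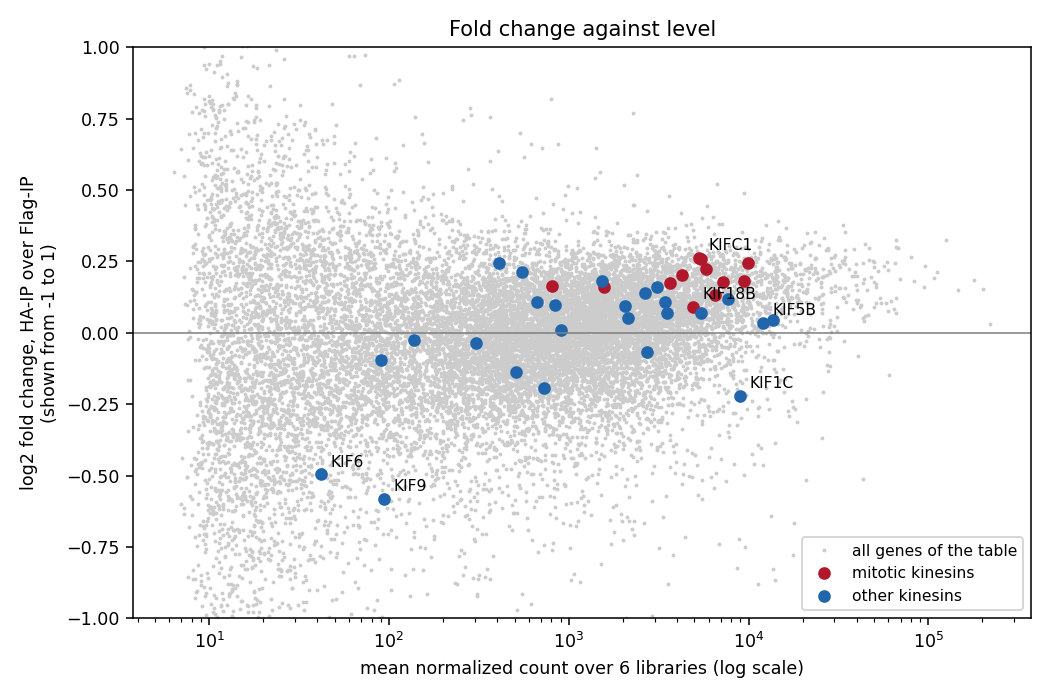
Log2 fold change, HA-IPs over Flag-IPs (y axis, shown from -1 to 1), against the mean normalized count over 6 libraries (x axis, log scale) for all 16834 genes (grey), mitotic kinesins (red) and other kinesins (blue). The mitotic kinesins lie in the upper part of the grey cloud at their level, and KIF1C lies apart from them on the negative side at a like count.

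Of 23 genes for spindle partners of the mitotic kinesins, 7 were higher in the HA-IPs and 1 was higher in the Flag-IPs by the same test, that is 30.4% and 4.35%, with a median log2 fold change of 0.10. The shares were 5.79% and 7.1% over all genes, and 14.4% and 7.42% over genes averaging 1000 or more. CENPE, the kinesin-7 that moves chromosomes to the spindle equator, had values of 4599.9, 4872 and 5099.8 in the Flag-IPs, set against 5419, 5442 and 5667 in the HA-IPs, without overlap (log2 fold change 0.18, SE 0.0515, limma adjusted p = 0.0391). ECT2, the exchange factor that centralspindlin brings to the equator, rose from 3726, 3529 and 3589 to 4443, 4136 and 4121 (log2 fold change 0.23, SE 0.0507, limma adjusted p = 0.0146). CKAP2, a microtubule-bound spindle protein, had a log2 fold change of 0.24, the checkpoint kinase BUB1B 0.23 and the contractile ring protein anillin (ANLN) 0.21. The groups were apart in all of them (limma adjusted p = 0.0132, 0.0173 and 0.0239). The last called pair was RACGAP1, the partner of KIF23 in centralspindlin, at 0.20 and the microtubule polymerase CKAP5 at 0.26, both outside the rule for named genes.

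BIRC5 (survivin), the subunit of the chromosomal passenger complex that KIF20A relocates, was the 1 spindle partner called for the Flag-IPs. It had 6212, 6366 and 5973 in the Flag-IPs, set against 5048, 5059.9 and 5075 in the HA-IPs. The HA-IPs were lower in every library (log2 fold change -0.29, SE 0.0457, limma adjusted p = 0.00294), and the call held in all 6 fits without a library. INCENP, AURKB and CDCA8, other genes of that complex and outside the rule for named genes, had log2 fold changes of 0.13, 0.16 and 0.001. None of them was called (limma adjusted p = 0.143, 0.0674 and 0.994).

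Of 20 genes for light chains, adaptors and cargo linkers of the transport kinesins, 3 were called (15%), all higher in the HA-IPs, while the median of the list was -0.09. This share was above the 5.79% of all genes and near the 14.4% of genes averaging 1000 or more. The direction of the calls was not stable, with 1 for the HA-IPs and 3 for the Flag-IPs at the same total per library, and 3 and 5 after GC and length trends were removed. KLC1, a light chain of kinesin-1, spread widely with 2934, 3306 and 4014 in the Flag-IPs, set against 4618, 4486 and 4028 in the HA-IPs (log2 fold change 0.37, SE 0.0964, limma adjusted p = 0.0298). KLC4, another light chain, and KIFBP, which binds kinesin motor domains and blocks them, had log2 fold changes of 0.19 and 0.18 (limma adjusted p = 0.0378 and 0.0226). The heavy chains of kinesin-1 were not called, with 0.04 for KIF5B, 0.14 for KIF5C and 0.10 for KIF5A.

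Cytoplasmic dynein and dynactin, the motor and cofactor of traffic toward the minus end, had calls for the Flag-IPs in limma. Of 22 genes 0 passed the limma test toward the HA-IPs (3 had an unadjusted p under 0.05, and edgeR called 0 and DESeq2 1) and 6 passed it toward the Flag-IPs (27.3%, against 7.1% of all genes), with a median of -0.07. DYNC1I1, an intermediate chain, fell from 101, 123 and 130.1 to 55, 46.5 and 67.3 (log2 fold change -1.07, SE 0.194, limma adjusted p = 0.00593). DCTN3 had a log2 fold change of -0.44, the light chains DYNLT1 and DYNLRB1 of -0.54 and -0.43 and the dynein regulator NDEL1 of -0.31 (limma adjusted p = 0.00733, 0.0107, 0.0167 and 0.0436). After GC and length trends were removed, DCTN3 was at -0.25, DYNLT1 at -0.34 and DYNLRB1 at -0.23, and the last 2 were no longer called (limma adjusted p = 0.0381, 0.0724 and 0.0516). The list as a whole still had 0 calls for the HA-IPs and 6 for the Flag-IPs in that fit, with a median of -0.0986. The sixth, the light chain DYNLL1, was at -0.57 and is outside the rule for named genes. Calls over the 3 partner lists fell from 17 to 2 without Flag-IP replicate 2, to 5 without HA-IP replicate 1 or 2 and to 7 without HA-IP replicate 3. With the libraries at the same total 4 were for the HA-IPs and 13 for the Flag-IPs, instead of 10 and 7.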

How the data were processed

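RNA-seq of 3 Flag-IPs and 3 HA-IPs was analysed. Per the labels and methods, poly(A) RNA was read as 2 x 150 bp, trimmed (Trimmomatic 0.36), mapped to GRCh38 (STAR 2.5.2b) and counted (featureCounts, Subread 1.5.2), and genes with fewer than 10 reads in at least 3 samples were excluded. PAX8, at no more than 4.41 normalized counts in any HA-IP, is still listed, so this filter was not applied as worded. The strand setting is not given in the sources used here. The values the authors deposited are a normalized signal, reads divided by a size factor of DESeq2, and 100% came out as whole reads (within 0.01 read). The authors' fold changes and adjusted p-values, also in the table, were not used. Here log2(value + 1) was compared in limma 3.58.1 (R 4.3.3, variance trend, two-sided, Benjamini-Hochberg over 16834 genes, threshold 0.05), which understates changes of low genes. This test suits normalized values. It was also run on simulated data, with the same spread for every gene and changes larger than those of the mitotic kinesins. That run therefore cannot show how well changes of their size are called. With 3 libraries per group the spread between replicates limits precision. Alternatives were edgeR 4.0.16 and DESeq2 1.42.0 on recovered reads, other pseudocounts, filters and scalings, each library left out, the replicate number as a block and, chosen after seeing the data, removal of GC and length trends. Coordinates are from GENCODE release 44 (99.1% of identifiers). Members and lists were chosen with earlier results of these data known. The genes named are all mitotic kinesins, other kinesins that were called, the 5 with the largest change (mean at least 100) and the 5 highest per length, up to 5 called genes per partner list by adjusted p, and CENPE. Exceptions are said to be so.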

Additional observations from a re-analysis of the deposited data

How the results depend on the processing

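The direction of the 12 mitotic kinesins was positive under every alternative run. The count of 7 called mitotic kinesins became 4 with the same total per library, 4 with quantile normalization, 0 in limma without the trend and 2 at an adjusted p of at most 0.01, and ranged from 1 to 8 when a library was left out. The count of 2 called other kinesins became 1 with quantile normalization, DESeq2, limma without the trend and the replicate block. It was 0 at an adjusted p of at most 0.01 and ranged from 0 to 3 without a library. The direction of these calls also changed without Flag-IP replicate 3. Of the 3 called there, 2 had a positive fold change, KIF13B among them (0.21, limma adjusted p = 0.0346), and 1 had a negative fold change. With the replicate block, 7 mitotic kinesins and 12 partner genes were called and 1662 genes in all. Same-numbered replicates did not deviate together (r of same-numbered deviations -0.156, 0.0306 and -0.31). The largest r was 0.302, for Flag-IP replicate 1 with HA-IP replicate 3. Whether any samples are paired cannot be told from these values. The 17 called partner genes became 11 with quantile normalization, 0 without the trend and 3 at an adjusted p of at most 0.01, and ranged from 2 to 23 without a library. The median of the mitotic kinesins moved to 0.1255 with the same total per library, where that of all genes moved to -0.0573. That of the other kinesins moved to 0.0002 with the same total and to -0.0042 after GC and length trends were removed, a setting chosen after seeing the data, and ranged from 0.0205 to 0.0603 without a library. The sign of KIF5B reversed with the same total (-0.0174), quantile normalization (-0.0308) and the removal of trends (-0.0042), that of KIF1A likewise (-0.007, -0.0512 and -0.0079), and that of KIF7 without Flag-IP replicate 1 (range without a library -0.0035 to 0.1284). The cause was not tested. Pseudocounts of 0.1 and 10, the same upper quartile and edgeR kept all counts within 1.5 times. Over the named genes and alternatives, 531 values kept their direction and side of the threshold, 141 lost the call, 5 gained one and 7 reversed. Counting error weighs most on genes of low counts such as KIF6 and KIF9, and its share of the spread was not measured.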

Other observations

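Ratios between further pairs of kinesins were computed per library, on pairs chosen after earlier values had been seen. KIF20A, the motor of the midzone, was 1.39, 1.49 and 1.49 times its relative KIF20B in Flag-IP replicates 1 to 3, compared with 1.47, 1.64 and 1.53 times in the HA-IPs, and the groups overlapped. The ratio of the kinesin-8 genes, KIF18A to KIF18B, overlapped as well, with 0.197, 0.145 and 0.144 in the Flag-IPs, compared with 0.171, 0.155 and 0.183 in the HA-IPs. Between kinesin-14 genes the ratio of the mitotic KIFC1 to KIFC3, which works at the centrosome and in adhesion, was 8.36, 8.96 and 9.84 in the Flag-IPs, compared with 11.7, 11.7 and 12.4 in the HA-IPs, without overlap. Between kinesin-4 genes KIF4A was 3.11, 3 and 3.16 times KIF21A in the Flag-IPs, compared with 3.24, 3.27 and 3.32 times in the HA-IPs, apart by a narrow margin.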
